A study of Mus musculus with 57 samples.

Results

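E-cadherin (Cdh1), the plaque proteins ZO-1 (Tjp1) and cingulin (Cgn), the claudins Cldn4, Cldn6 and Cldn7, occludin (Ocln), junctional adhesion molecule A (F11r) and desmoplakin (Dsp) were followed in RNA from mouse oocytes and preimplantation embryos. These 9 genes of the cell junctions were chosen by name and matched to the deposited table by Ensembl identifier. All 9 were found among its 59119 rows, of which 54446 are Ensembl genes.

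Blastomeres first flatten against each other at compaction, when E-cadherin gathers at their contacts and adherens junctions form. The outer cells then build tight junctions, in which claudins, occludin and junctional adhesion molecules close the gap between cells and plaque proteins such as ZO-1 and cingulin tie them to the cytoskeleton. Desmosomes, anchored to keratin filaments by desmoplakin, are known from the trophectoderm of the blastocyst, whose sealed epithelium encloses the cavity.

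The study asked, as its title says, how long noncoding RNAs activated by repeat elements act in the start of embryonic transcription. A stage series of wild type C57BL/6 mice ran from MII oocyte and zygote through the 2-cell embryo, sampled early as E2-cell and late as L2-cell, to the 4-cell and 8-cell embryo, morula and blastocyst, with 2 sample columns per stage. A time series of wild type BDF1 embryos covered 14, 17 and 20 hours after fertilization, with 2 columns per time. BDF1 embryos of genotype LncR-3363 KD, a knockdown of a long noncoding RNA, formed the groups KD-1cell (4 columns) and KD-2cell (1 column), against wild type BDF1 Ctrl embryos (4 columns). BDF1 embryos of genotype MT2Mm KO, a knockout of the long terminal repeat that serves as promoter of the retroviral element MERVL, were set against wild type BDF1 controls at late 1-cell (Late1c) and early 2-cell (Early2c), with 3 columns per group and an age of 6 to 8 weeks in the labels. Per the protocol in the labels of all but the MT2Mm samples, injected MII oocytes received 5 to 10 pL, holding an antisense oligonucleotide (ASO) at 20 uM or MT2Mm guide RNA at 150 ng/uL with Cas9 mRNA at 100 ng/uL, and were fertilized in vitro. Whether the controls were injected, and which allele the knockout left, is not given. Samples prepared with the TruSeq kit pooled about 150 to 200 embryos each, and which samples used the SMARTer low-input kit instead is not given. The labels call the Ctrl and both KD groups embryos, with no stage beyond the group name, so the stage reached and the knockdown cannot be told apart in that experiment. Columns taken as LncR-3363 carry another short name in the table, and their assignment was made only from how the series is built up. The levels of LncR-3363 and of MT2Mm were not analysed here.

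The deposited levels are FPKM, in which fragment numbers are divided by transcript length and by the size of the library. Read depth cannot be recovered from them and is unknown. Column sums ran between 311500 and 720800 FPKM, and rows of small and ribosomal RNAs made up 18.0% to 73.5% of them, with the highest shares in the L2-cell samples (64.6% and 73.5%). Between 10704 and 12892 rows reached 1 FPKM, and samples of a group correlated across rows with r of 0.973 to 0.995. Column names carry tags, shared by both L2-cell samples and MII replicate 2, by both E2-cell samples and zygote replicate 1, and by zygote replicate 2 and MII replicate 1. From 4-cell to blastocyst every column carries the tag merge, which no earlier stage of the series has. Tag and stage therefore cannot be told apart for L2-cell against E2-cell, 4-cell against L2-cell or blastocyst against MII. For E2-cell against zygote a single zygote sample shares the tag. The defining RNAs of the oocyte list (Zp1, Zp2, Zp3, Gdf9, Bmp15 and Oosp1) summed to 2950 and 3109 FPKM in MII oocytes, and those of the trophectoderm list (Cdx2, Gata3, Krt8, Krt18, Elf5 and Eomes) to 1399 and 1502 FPKM in blastocysts. Markers of fibroblasts and stroma were low, with sums of at most 1.98 FPKM outside the blastocyst and 10.6 to 12.0 FPKM in it. Of these 7 genes 1 had a mean of at least 1 FPKM in blastocysts, and Col3a1, Dcn and Lum were listed at 0 there. Cumulus and granulosa markers summed to 7.85 to 8.26 FPKM at E2-cell, 25.7 to 28.0 at L2-cell and 33.9 to 52.9 from 4-cell to blastocyst. Few genes carried these sums. At E2-cell and L2-cell 2 of the 15 had a mean of at least 1 FPKM. From 4-cell to blastocyst 3 to 4 did, and 4 to 8 were listed at 0. Their part in the results was not tested. The labels do not say that samples of a group were separate collections, so every p below measures the spread between samples, which may be technical.

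In build GRCm38 all 9 genes are annotated as protein-coding. Cdh1 lies at chr8:106603351-106670246 on the forward strand and Dsp at chr13:38151294-38198577, also forward. The plaque genes Tjp1 (chr7:65296165-65527781) and Cgn (chr3:94760069-94786492) are on the reverse strand. Cldn6 (chr17:23679249-23682446), Cldn7 (chr11:69964779-69967885) and F11r (chr1:171437535-171464603) are on the forward strand, and Cldn4 (chr5:134945119-134946934) and Ocln (chr13:100496507-100552718) on the reverse strand. Cldn4 is a single exon of 1816 bases, against 31 merged exons and 7811 bases for Tjp1. Dsp shares 499 exon bases with Gm10129 on the other strand, a row that reached at most 0.107 FPKM in any sample.

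The stretches upstream of 5 of the genes are shown because these 5 had the largest increases at a single step of the stage series. They are grouped by that step: F11r and Cldn6 at L2-cell, Cldn7 and Cldn4 at 4-cell, and Dsp at blastocyst. Each ends at the base before the annotated start and is read along the strand of the gene, from RefSeq (GRCm38.p6), with matches to the searched motifs in capitals. The F11r stretch is chr1:171437311-171437534 (forward), that of Cldn6 chr17:23679115-23679248 (forward), that of Cldn7 chr11:69964529-69964778 (forward), that of Cldn4 chr5:134946935-134947184 (reverse) and that of Dsp chr13:38151044-38151293 (forward).
F11r: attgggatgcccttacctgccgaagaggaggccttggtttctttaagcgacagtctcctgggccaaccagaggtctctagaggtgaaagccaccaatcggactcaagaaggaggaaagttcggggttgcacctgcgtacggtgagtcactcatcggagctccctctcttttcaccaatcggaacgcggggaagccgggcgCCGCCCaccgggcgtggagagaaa
Cldn6: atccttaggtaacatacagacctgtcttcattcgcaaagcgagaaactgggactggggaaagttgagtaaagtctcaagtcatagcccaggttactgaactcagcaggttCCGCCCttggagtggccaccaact
Cldn7: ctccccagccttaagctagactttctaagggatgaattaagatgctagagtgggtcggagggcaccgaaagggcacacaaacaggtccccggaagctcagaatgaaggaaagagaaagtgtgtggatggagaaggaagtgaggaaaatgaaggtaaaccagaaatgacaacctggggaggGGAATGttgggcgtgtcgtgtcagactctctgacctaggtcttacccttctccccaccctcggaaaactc
Cldn4: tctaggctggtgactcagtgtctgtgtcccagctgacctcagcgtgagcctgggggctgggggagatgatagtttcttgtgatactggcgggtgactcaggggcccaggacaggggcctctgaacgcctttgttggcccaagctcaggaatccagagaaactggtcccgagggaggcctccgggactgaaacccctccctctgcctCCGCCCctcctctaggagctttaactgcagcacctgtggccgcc
Dsp: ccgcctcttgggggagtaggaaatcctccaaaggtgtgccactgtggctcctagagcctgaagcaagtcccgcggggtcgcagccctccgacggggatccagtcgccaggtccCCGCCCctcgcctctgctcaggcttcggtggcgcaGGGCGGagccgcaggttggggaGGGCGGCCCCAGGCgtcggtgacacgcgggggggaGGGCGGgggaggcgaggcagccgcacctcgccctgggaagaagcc

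The motifs searched on both strands, in the 250 bases before the RefSeq start, were GGAATG (TEAD factors), GCCNNNGGC (TFAP2 factors), AACNNGTT (grainyhead-like factors) and GGGCGG (KLF and SP factors). Of the 9 genes 8 have such a window in the RefSeq table, and Cdh1 was not searched. GGGCGG occurred in 7 of the 8 windows, all but that of Cldn7, and in 32.9% of the 27025 windows of all genes. The whole Tjp1 window lies inside the gene span given above. Those of Cgn, F11r and Cldn6 do so in part, and a Cldn6 match at position -8 from the RefSeq start is not in the stretch shown. Windows of the 8 genes held 51.2% to 72.4% G and C, against a median of 52.0% over all windows. GGAATG occurred in the Cldn7 window alone among the 8 and in 12.6% of all windows. GCCNNNGGC occurred in the Dsp window, where it overlaps 1 GGGCGG match, and in 13.6% of all windows. AACNNGTT occurred in the Cgn window and in 3.63% of all windows. A match describes letters only, and a window without one says nothing about the factor.

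Across the 8 stages the 9 genes took different courses and reached their highest mean level at the blastocyst. Those present in the oocyte (Cdh1, Tjp1, Cgn, Cldn4 and Ocln) passed through a minimum between zygote and L2-cell. F11r, Cldn6, Cldn7 and Dsp were below 1 FPKM in every MII and zygote sample. In these whole embryos, fewer cells of a type and less RNA per cell cannot be told apart.

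Cdh1, the adhesion molecule of the adherens junction, dipped and then climbed. It had 36.8 and 49.5 FPKM in MII oocytes, 31.1 and 31.4 in zygotes, 9.09 and 11.6 at E2-cell, 7.75 and 6.34 at L2-cell, 22.8 and 21.98 at 4-cell, 48.1 and 48.7 at 8-cell, 72.4 and 68.1 in morulae, and 152.1 and 154.8 in blastocysts. The 8-cell samples lay within the range of the MII samples. Blastocysts held 21.8 times the mean of L2-cell embryos and 3.56 times that of MII oocytes.

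Tjp1, a scaffold of the tight junction plaque, varied least of the 9. It had 26.5 and 29.9 FPKM in MII oocytes, 11.6 and 23.4 in zygotes, 21.5 and 22.9 at E2-cell, 13.98 and 11.6 at L2-cell, 24.5 and 26.0 at 4-cell, 33.04 and 31.9 at 8-cell, 29.5 and 29.8 in morulae, and 32.99 and 32.9 in blastocysts. Zygote replicate 1 stood well below replicate 2 for this gene and for Cgn. Blastocyst and 8-cell samples overlapped, as did those of morula and MII.

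Cgn, which binds ZO-1 and links the plaque to actomyosin and microtubules, also stayed within a narrow band. It had 13.0 and 16.6 FPKM in MII oocytes, 5.59 and 11.7 in zygotes, 18.5 and 18.9 at E2-cell, 10.9 and 11.3 at L2-cell, 11.01 and 11.99 at 4-cell, 17.4 and 16.4 at 8-cell, 21.0 and 20.2 in morulae, and 25.4 and 24.5 in blastocysts. It alone of the 5 genes present in the oocyte had its lowest mean in the zygote, a mean that rests on replicates of 5.59 and 11.7 FPKM.

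Cldn4, a claudin of barrier epithelia, had the widest course among the genes present in the oocyte. It had 11.5 and 8.19 FPKM in MII oocytes, 5.38 and 2.69 in zygotes, 0.290 and 1.36 at E2-cell, 0.481 and 0.401 at L2-cell, 14.2 and 17.4 at 4-cell, 141.4 and 153.0 at 8-cell, 175.1 and 167.2 in morulae, and 375.6 and 355.9 in blastocysts. The mean at blastocyst was 830 times that at L2-cell and 37.1 times that in MII oocytes. Its mean stood at rank 107 of the 59119 rows in blastocysts.

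Cldn6, a claudin known from early embryos and embryonic epithelia, dipped in the morula before its highest level. It had 0.108 and 0.0469 FPKM in MII oocytes, 0 and 0.0637 in zygotes, 0.219 and 0.564 at E2-cell, 12.1 and 12.4 at L2-cell, 8.72 and 7.13 at 4-cell, 12.7 and 14.3 at 8-cell, 3.40 and 3.53 in morulae, and 31.1 and 28.4 in blastocysts. Both morula samples were below all L2-cell, 4-cell and 8-cell samples and below both blastocyst samples.

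Cldn7, a claudin of the lateral membrane, appeared later than Cldn6. It had 0.227 and 0.332 FPKM in MII oocytes, 0.110 and 0.394 in zygotes, 0.193 and 0.119 at E2-cell, 1.37 and 1.34 at L2-cell, 15.8 and 14.6 at 4-cell, 39.7 and 37.2 at 8-cell, 34.1 and 31.7 in morulae, and 68.6 and 70.6 in blastocysts. From L2-cell on no sample overlapped the stages next to it in level.

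Ocln, a membrane protein of the tight junction strands, was the lowest of the 9 at the blastocyst. It had 3.84 and 3.25 FPKM in MII oocytes, 1.86 and 1.99 in zygotes, 0.703 and 0.934 at E2-cell, 3.91 and 3.58 at L2-cell, 5.97 and 5.46 at 4-cell, 7.32 and 8.07 at 8-cell, 8.26 and 8.14 in morulae, and 8.82 and 10.1 in blastocysts. L2-cell and MII samples overlapped, and the means were higher at each stage from E2-cell to blastocyst.

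F11r, an immunoglobulin-like adhesion molecule of the tight junction, had its main increases at L2-cell and 4-cell. It had 0.299 and 0.178 FPKM in MII oocytes, 0.347 and 0.247 in zygotes, 0.750 and 1.179 at E2-cell, 17.9 and 16.6 at L2-cell, 62.2 and 63.2 at 4-cell, 73.5 and 65.9 at 8-cell, 63.1 and 57.0 in morulae, and 87.9 and 84.9 in blastocysts. The 4-cell and morula samples overlapped.

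Dsp, the link of the desmosome to keratin, was near or below 1 FPKM until the 8-cell stage. It had 0.638 and 0.545 FPKM in MII oocytes, 0.165 and 0.444 in zygotes, 0.957 and 0.781 at E2-cell, 0.242 and 0.178 at L2-cell, 0.421 and 0.461 at 4-cell, 0.907 and 0.939 at 8-cell, 2.47 and 2.03 in morulae, and 55.3 and 55.3 in blastocysts. Blastocysts held 24.55 times the mean of morulae.

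**Figure D1:**
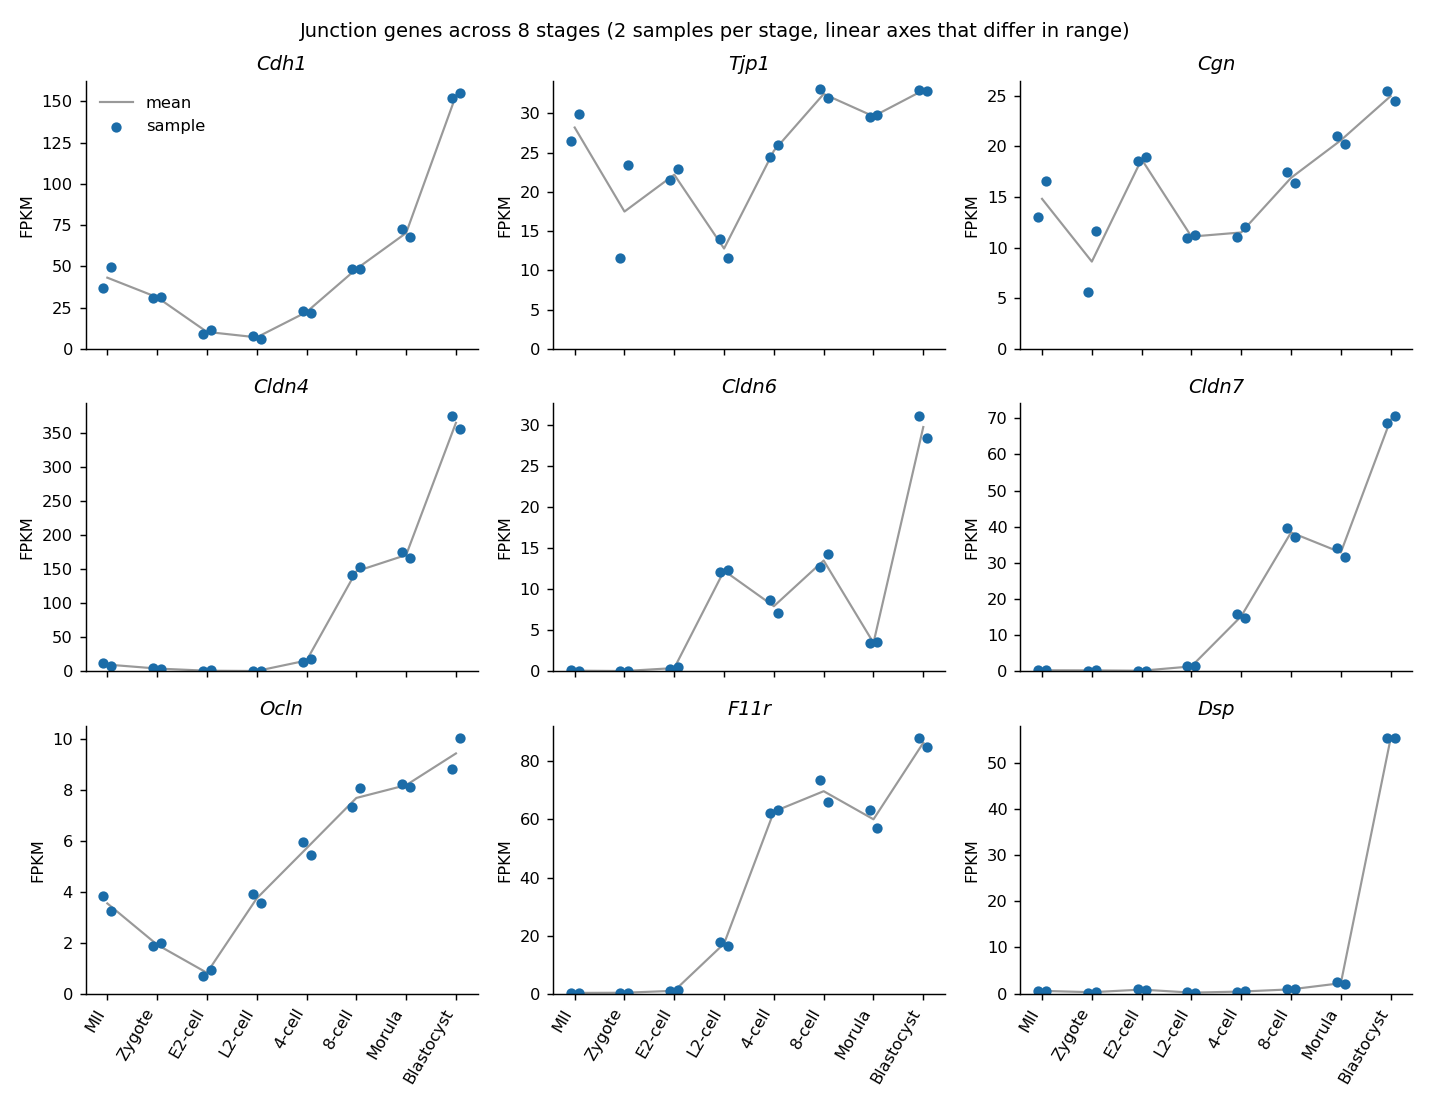
FPKM of each of the 9 genes (vertical axis, linear, its range differing between panels) over the 8 stages; points are the 2 samples per stage and lines join the means. Cldn4 climbs to 355.9 and 375.6 FPKM in blastocysts, F11r is at 62.2 and 63.2 FPKM at 4-cell, Cldn6 drops to 3.40 and 3.53 FPKM in morulae, and Dsp is at 55.3 FPKM in both blastocyst samples.

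The mixture of junction RNAs changed with these courses. Of the summed FPKM of the 9 genes, Cdh1, Tjp1 and Cgn made up 42.6%, 28.0% and 14.7% in MII oocytes (means of 2 samples). At L2-cell F11r (26.0%), Tjp1 (19.3%) and Cldn6 (18.6%) were the largest shares. F11r led at 4-cell with 37.6%. Cldn4 led from the 8-cell stage on, with 39.2% there, 43.0% in morulae and 44.2% in blastocysts. Tjp1 and Cgn had shares of 3.98% and 3.01% in blastocysts at levels above those of the oocyte, because the sum had grown to 817.4 and 838.0 FPKM, against 92.9 and 108.6 in MII oocytes.

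**Figure D2:**
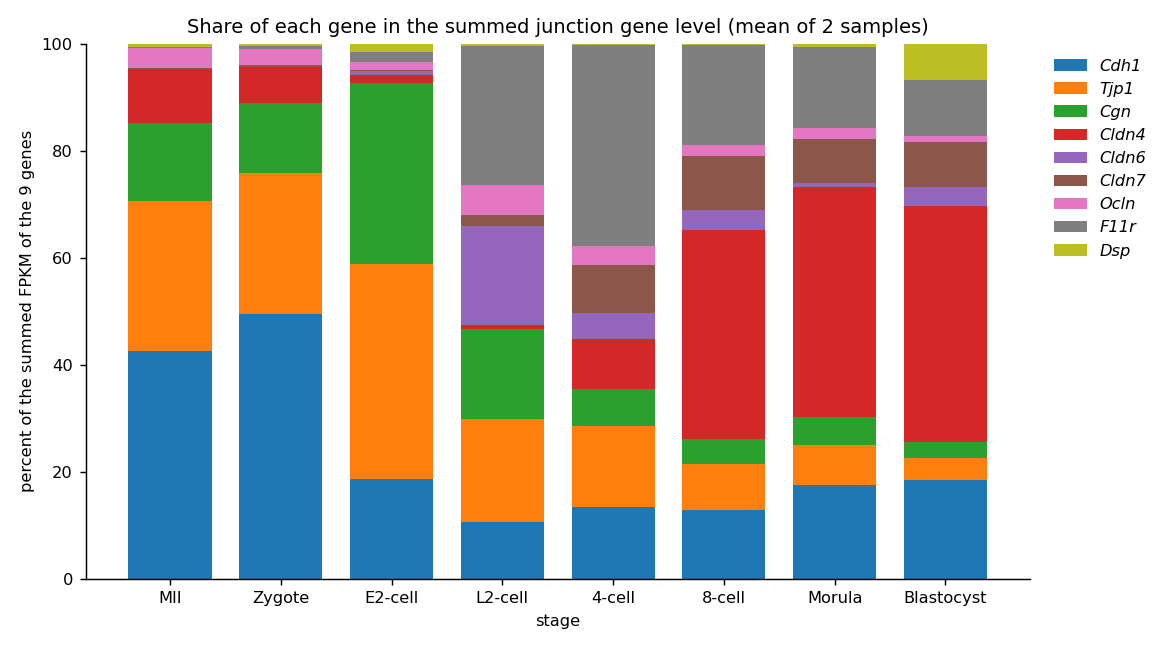
Share of each gene in the summed FPKM of the 9 genes (vertical axis, percent, mean of 2 samples) at each of the 8 stages. Cdh1 is the largest share in MII oocytes (42.6%) and zygotes (49.5%), F11r at 4-cell (37.6%) and Cldn4 from 8-cell (39.2%) to blastocyst (44.2%).

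Each step was tested with limma on log2(FPKM + 0.5), a scale that understates the change of low genes, and calls are genes with an adjusted p under 0.05 (Benjamini-Hochberg, over all rows tested). In the stage series 19692 rows with at least 1 FPKM in at least 2 samples were tested, and all 9 genes were among them. For Cldn6, Cldn7, F11r and Dsp the filter was passed through the late stages, where they are high. Neighbouring steps share a stage, so their results are not independent.

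Between MII oocyte and zygote Ocln fell, by 0.74 on the log2 scale (SE 0.13, adjusted p = 0.015), and no other of the 9 was called. Over all rows 3.76% were called at this step, a share that was 25.7% without zygote replicate 2 and 1.90% without MII replicate 1. The other 8 had log2 changes of -1.24 (Cldn4) to 0.11 (F11r), and 5 of them had an unadjusted p under 0.05 without passing the adjustment. The means of Cldn4 were 4.03 FPKM in zygotes and 9.86 in MII oocytes, with SE 0.36 for the change. Within the samples that share a tag (zygote replicate 2 and MII replicate 1), Ocln fell by 0.80 (adjusted p = 0.029), in a fit that takes the lone samples to vary like the other stages. The call of Ocln was lost without MII replicate 1 (log2 -0.63, adjusted p = 0.077) and in a fit of these stages alone (adjusted p = 0.67).

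At E2-cell the maternal adhesion RNAs went down while the plaque gene Cgn and 3 genes of low level went up. Cdh1 fell by 1.56 (SE 0.16, adjusted p = 1.4e-05), Cldn4 by 1.84 (SE 0.36, adjusted p = 0.0017) and Ocln by 0.88 (SE 0.13, adjusted p = 0.00024) against zygotes. Cgn rose by 1.16 (SE 0.25, adjusted p = 0.0027). F11r (0.86), Dsp (0.79) and Cldn6 (0.72) also rose, at means of 0.964, 0.869 and 0.391 FPKM in E2-cell embryos against 0.297, 0.304 and 0.0318 in zygotes. Oocyte markers summed to 1488 and 1599 FPKM at E2-cell against 2709 and 4621 in zygotes, and their part in the falls was not tested. These 7 of 9 calls, 4 up and 3 down, compare with 44.1% of all rows called at the step. Of them, F11r, Dsp and Cldn6 passed the filter through later stages, where they are high, and add nothing to that count. Against the zygote sample of the same tag, Cdh1 changed by -1.56, Cgn by 1.66, Cldn4 by -2.28, Ocln by -0.85, F11r by 0.77, Dsp by 1.04 and Cldn6 by 0.81, all called. The calls of Cgn (adjusted p = 0.086) and Cldn4 (adjusted p = 0.066) were lost when the stages were fitted alone, and that of Cldn6 without E2-cell replicate 2 (log2 0.44, adjusted p = 0.066).

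L2-cell embryos had the first large increases of junction genes. Cldn6 rose by 3.87 (SE 0.18, adjusted p = 1e-08) and F11r by 3.61 (SE 0.15, adjusted p = 5.7e-09) against E2-cell, the genes of the first pair of sequences above. Ocln rose by 1.69 (SE 0.13, adjusted p = 5.7e-07) and Cldn7 by 1.501 (SE 0.16, adjusted p = 8.9e-06). Dsp fell by 0.95, Tjp1 by 0.78, Cgn by 0.73 and Cdh1 by 0.52, with adjusted p between 0.00032 and 0.02. Cldn4 had a log2 change of -0.37 with overlapping samples and was not called. The 8 of 9 calls stand beside 68.7% of all rows. Of these, Cldn6, Cldn7, F11r and Dsp passed the filter through stages where they are high and add nothing to that count. Scaling the columns by the median of ratios moved the median change of all rows by -0.12, to -0.22, and left all 8 calls in their direction. Those of Cdh1 (adjusted p = 0.12 and 0.1) and Tjp1 (0.062 and 0.087) were lost without E2-cell replicate 2 and without L2-cell replicate 2, and that of Cgn without any 1 of the 4 samples (adjusted p 0.062 to 0.076). Small and ribosomal rows made up 64.6% and 73.5% of FPKM at L2-cell against 51.9% and 52.6% at E2-cell, and their part in these falls was not tested.

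At 4-cell the claudins Cldn4 and Cldn7 came up and Cdh1 and Tjp1 returned. Cldn4 rose by 4.11 (SE 0.36, adjusted p = 4.1e-06) and Cldn7 by 3.08 (SE 0.16, adjusted p = 1.6e-07) against L2-cell, 35.9 and 11.2 times in mean FPKM. F11r rose by 1.84 (SE 0.15, adjusted p = 2.7e-06), Cdh1 by 1.61 (SE 0.16, adjusted p = 9.7e-06), Tjp1 by 0.96 (SE 0.24, adjusted p = 0.0056) and Ocln by 0.55 (SE 0.13, adjusted p = 0.004). Cldn6 fell by 0.60 (SE 0.18, adjusted p = 0.013). Cgn had 11.5 FPKM at 4-cell and 11.1 at L2-cell, and Dsp changed by 0.41 with an adjusted p of 0.053. The 7 of 9 calls stand beside 56.3% of all rows called. Tag and stage cannot be told apart at this step. That of Cldn6 was lost without L2-cell replicate 2 (adjusted p = 0.053), without the 4-cell column numbered 4 (adjusted p = 0.1) and with a pseudocount of 0.1 FPKM (adjusted p = 0.13).

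The 8-cell stage, at which mouse embryos compact, brought Cldn4 above the other 8 genes in level. Cldn4 rose by 3.18 (SE 0.36, adjusted p = 0.0001) against 4-cell, 9.30 times in mean FPKM. Cldn7 rose by 1.31 (SE 0.16, adjusted p = 0.00019) and Cdh1 by 1.10 (SE 0.16, adjusted p = 0.00047). Smaller increases were called for Cldn6 (0.74), Dsp (0.60) and Ocln (0.40), with adjusted p of 0.0081, 0.016 and 0.035. Dsp passed the filter through morulae and blastocysts alone and adds nothing to the count below. Cgn (0.54), Tjp1 (0.36) and F11r (0.15) did not pass, although for each of the 9 both 8-cell samples were above both 4-cell samples. Of the 9 genes 6 were called, all upward, against 35.0% of all rows (23.1% without the 4-cell column numbered 4 and 22.5% without 8-cell replicate 2), and after scaling 7 were, also upward. The calls of Dsp and Ocln were each lost without any 1 of the 4 samples (adjusted p 0.056 to 0.079 for Dsp and 0.065 to 0.19 for Ocln). That of Cldn6 was lost without the 4-cell column numbered 4 (adjusted p = 0.073), without 8-cell replicate 2 (adjusted p = 0.063) and with a pseudocount of 0.1 (adjusted p = 0.099), which also cost the call of Ocln (0.06).

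From 8-cell to morula the set moved little apart from Cldn6 and Dsp. Cldn6 fell by 1.82 in morulae (SE 0.18, adjusted p = 5.4e-05) and Dsp rose by 0.95 (SE 0.16, adjusted p = 0.0019). Dsp passed the filter through morulae and blastocysts, where it is highest, and adds nothing to the count below. Cdh1 rose by 0.53 (SE 0.16, adjusted p = 0.036), a call lost without any 1 of the 4 samples (adjusted p 0.11 to 0.17), with no filter (0.057) and with a replicate block (0.072). The other 6 had log2 changes of -0.22 to 0.28. The 3 of 9 calls compare with 20.9% of all rows, or 13.0% without 8-cell replicate 1, 13.1% without morula replicate 1 and 12.4% without morula replicate 2.

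In blastocysts the desmosome gene Dsp and the claudins rose together with Cdh1. Dsp rose by 4.35 (SE 0.16, adjusted p = 8.2e-09) and Cldn6 by 2.93 (SE 0.18, adjusted p = 2.2e-07) against morulae. Cdh1 (1.12, SE 0.16, adjusted p = 0.00017), Cldn7 (1.07, SE 0.16, adjusted p = 0.00028) and Cldn4 (1.09, SE 0.36, adjusted p = 0.032) each rose slightly more than 1 on this scale, and F11r rose by 0.52 (SE 0.15, adjusted p = 0.017). Cgn (0.27), Ocln (0.19) and Tjp1 (0.15) did not pass, with both blastocyst samples above both morula samples for each. The 6 of 9 calls, all upward, compare with 38.7% of all rows called. The call of Cldn4 held in 2 of 10 alternatives; it was lost without any 1 of the 4 samples (adjusted p 0.1 to 0.13), with a pseudocount of 0.1 (0.11), with no filter (0.064) and with a replicate block (0.059). That of F11r was lost with a pseudocount of 0.1 (adjusted p = 0.081) and without morula replicate 2 (0.11), blastocyst replicate 1 (0.097) or blastocyst replicate 2 (0.069). After scaling by the median of ratios Cldn4 changed by 0.89 (adjusted p = 0.1) and F11r by 0.32 (adjusted p = 0.14). Trophectoderm markers summed to 1399 and 1502 FPKM in blastocysts against 79.5 and 84.8 in morulae, and their part in the rise was not tested.

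**Figure D3:**
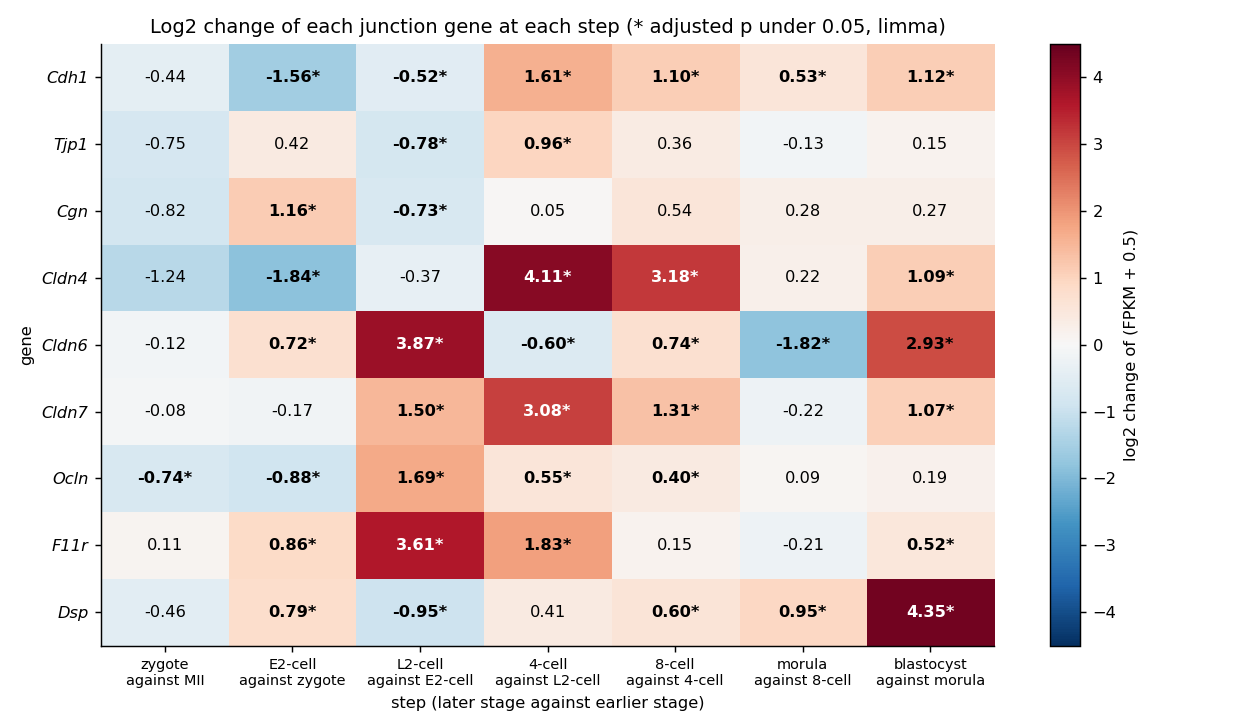
Log2 change of (FPKM + 0.5) of each of the 9 genes (rows) at each of the 7 steps between neighbouring stages (columns, later against earlier stage); red is higher in the later stage, blue lower, and a star marks an adjusted p under 0.05 (limma). The largest increases are Dsp at blastocyst (4.35), Cldn4 at 4-cell (4.11), Cldn6 (3.87) and F11r (3.61) at L2-cell.

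Set directly against MII oocytes, blastocysts were higher in all 9 means and 8 of the 9 rose, beside 80.3% of all rows called. Of these, Cldn6, Cldn7, F11r and Dsp passed the filter through later stages, where they are high, and add nothing to that count. Tag and stage cannot be told apart in this comparison. F11r (6.88, SE 0.15), Cldn7 (6.49, SE 0.16), Cldn6 (5.71, SE 0.18), Dsp (5.68, SE 0.16) and Cldn4 (5.16, SE 0.36) changed most, with adjusted p between 1.2e-11 and 9.2e-08. Cdh1 rose by 1.83 (SE 0.16, adjusted p = 6.3e-07), Ocln by 1.298 (SE 0.13, adjusted p = 2.2e-06) and Cgn by 0.74 (SE 0.25, adjusted p = 0.015). The call of Cgn was lost after scaling (0.47, adjusted p = 0.068), without MII replicate 1 (0.57, adjusted p = 0.11) and without blastocyst replicate 1 (0.72, adjusted p = 0.063). Tjp1 had 32.9 FPKM in blastocysts and 28.2 in MII oocytes, a change of 0.22 (SE 0.24) that did not pass (adjusted p = 0.42).

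As a description of shape, the Pearson correlation of log2 stage means was taken over the 8 stages, points that share libraries and scaling. Among the 9 genes it was highest for Cldn7 with F11r (0.934), Cldn6 with F11r (0.921) and Cdh1 with Cldn4 (0.919), and lowest for Tjp1 with Cldn6 (0.236). Of 10898 rows with a mean of at least 5 FPKM at some stage, the most similar to each gene outside the 9 were Htatip2 (0.994) for Cdh1, Mcm10 (0.983) for Tjp1, G3bp2 (0.959) for Cgn, Mrpl13 (0.995) for Cldn4, D5Ertd605e (0.981) for Cldn6, Slc17a5 (0.998) for Cldn7, Atp5o (0.995) for Ocln, Slc35e1 (0.999) for F11r and Lgals4 (0.992) for Dsp. The next most similar was Jup for Tjp1 (0.957), the gene of plakoglobin, a plaque protein of adherens junctions and desmosomes.

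Other genes of the same junctions were read for comparison, 42 in all: 13 of adherens junctions, 18 of tight junctions and 11 of desmosomes. In the stage series 33 of them passed the filter, and their counts of calls are to be read beside the shares of all rows called: 3.76% in zygotes, 44.1% at E2-cell, 68.7% at L2-cell, 56.3% at 4-cell, 35.0% at 8-cell and 20.9% in morulae. Between zygote and MII none of the 33 rose and 3 fell in limma, with 7 at an unadjusted p under 0.05. Cdh3, the gene of P-cadherin, fell by 0.76 (adjusted p = 0.035) and the tight junction scaffold gene Magi3 by 0.89 (adjusted p = 0.049). At E2-cell 4 rose and 7 fell, among them Ctnnd1 (p120-catenin, 1.15, adjusted p = 0.0088), Nectin3 (-0.96, adjusted p = 0.00041) and Cldn8 (-1.42, adjusted p = 6.3e-05). At L2-cell 6 rose and 13 fell. Cxadr, a tight junction adhesion molecule related to F11r, rose by 3.30 (adjusted p = 9.9e-09), at means of 6.02 FPKM at L2-cell and 0.166 at E2-cell, and Cldn8 fell by 2.85 (adjusted p = 9.7e-08). At 4-cell 7 rose and 8 fell, with Cxadr up again by 2.104 (adjusted p = 1.1e-06) and the desmosome-related Pkp4 down by 0.84 (adjusted p = 0.0038). At 8-cell 6 rose and 7 fell, where Nectin2, an adherens junction adhesion molecule, rose by 1.69 (adjusted p = 0.00013). In morulae 5 rose and 2 fell.

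At the blastocyst step, of the 33 that passed the filter among the 42, 19 rose and none fell in limma, and 20 had an unadjusted p under 0.05; their median log2 change was 0.83, against 0 over all rows and 1.07 over the 9 genes. By class 4 of 11 adherens, 9 of 15 tight junction and 6 of 7 desmosome genes were called, beside 38.7% of all rows. Genes with a morula mean under 1 FPKM, such as Dsg2, Dsc2 and Plekha7, were high in blastocysts, whose samples count towards the filter. Such genes add nothing to these counts or to the median. Dsg2 and Dsc2, desmosomal cadherins, rose by 4.37 (adjusted p = 6.9e-10) and 3.91 (adjusted p = 3.8e-08), at means of 14.2 and 7.51 FPKM in blastocysts against 0.211 and 0.0331 in morulae. Tjp3, the ZO-3 scaffold, rose by 2.98 (adjusted p = 2.4e-08), next to 0.15 for Tjp1. It had a mean of 17.1 FPKM in blastocysts against 1.72 in morulae, and Tjp1 had 32.9 in blastocysts against 29.6 in morulae. Vcl (vinculin, 2.73, adjusted p = 1e-06) and Plekha7 (2.41, adjusted p = 1.5e-07) led the adherens genes. After scaling by the median of ratios 16 rose and none fell, and the share of higher rows among all calls was 46.7% in place of 57.8%.

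**Figure D4:**
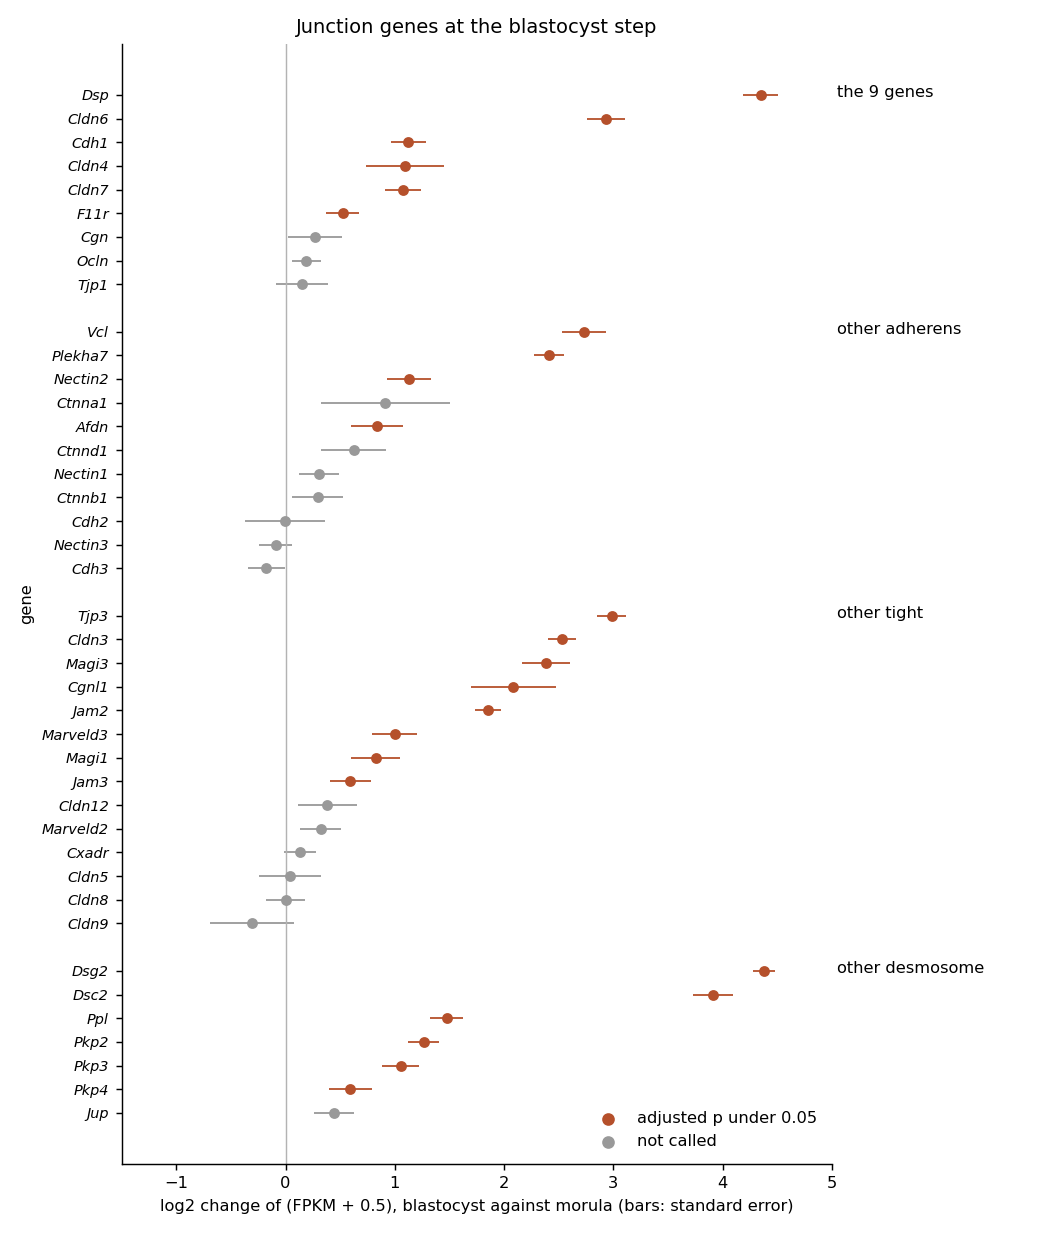
Log2 change of (FPKM + 0.5) between blastocyst and morula (horizontal axis, positive is higher in blastocysts) for the 9 genes and all but 1 of the other junction genes that passed the filter, by class; bars are the standard error and red points have an adjusted p under 0.05 (limma). The called genes are all to the right of 0, from 0.52 (F11r) to 4.37 (Dsg2).

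In the time series 4 of the 9 genes passed the filter (Cdh1, Tjp1, Cgn and Cldn4), and each fell in the first interval. The other 5 did not reach 1 FPKM in 2 of the 6 samples. Cdh1 had 29.4 and 31.2 FPKM at 14 hours, 21.1 and 16.2 at 17 hours, and 13.7 and 14.3 at 20 hours. Cldn4 had 1.89 and 2.105 FPKM at 14 hours, 0.997 and 0.998 at 17 hours, and 1.177 and 0.854 at 20 hours. Both were lower in each 17-hour sample than in each 14-hour sample. Tjp1 had 26.2 and 25.2 FPKM at 14 hours, 20.5 and 19.7 at 17 hours, and 19.6 and 17.7 at 20 hours. Cgn had 19.1 and 20.1 FPKM at 14 hours, 15.2 and 15.4 at 17 hours, and 15.9 and 17.5 at 20 hours.

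At 17 hours against 14 hours Cdh1 fell by 0.70 (SE 0.12, adjusted p = 0.006), Tjp1 by 0.35 (SE 0.06, adjusted p = 0.0064) and Cgn by 0.35 (SE 0.06, adjusted p = 0.0062). These 3 calls stand beside 37.0% of all rows (20.4% without 14-hour replicate 2 and 22.4% without 17-hour replicate 2). Cldn4 fell by 0.74 (SE 0.13, adjusted p = 0.0085), but it passed the filter through the 14-hour samples, where it was highest (a single other sample reached 1 FPKM), so it adds nothing to that count. Its call was lost without 14-hour replicate 2 (adjusted p = 0.056). Column names carry the word cat at 17 hours and merge at the other times, so that a difference in handling and time cannot be told apart here. At 20 hours against 17 hours none of the 4 was called in limma, beside 19.6% of all rows, or 7.17% to 9.41% with any 1 of the 4 samples left out. Cdh1 was the 1 gene with an unadjusted p under 0.05 (0.0154), with a log2 change of -0.38 (SE 0.12, adjusted p = 0.067). Without 17-hour replicate 2 a single fall was called, and with no filter on low values a single increase.

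F11r and Dsp, not tested in this series, had their higher values at 20 hours. F11r had 0.284 and 0.245 FPKM at 14 hours, 0.262 and 0.232 at 17 hours, and 0.889 and 0.658 at 20 hours. Dsp had 0.526 and 0.506 FPKM at 14 hours, 0.429 and 0.469 at 17 hours, and 0.890 and 0.962 at 20 hours. At 20 hours the markers of cumulus and granulosa cells summed to 14.5 and 14.9 FPKM, against 7.95 and 7.98 at 17 hours, and those of trophectoderm to 8.79 and 10.9, against 2.31 and 2.54. Sums of inner cell mass and primitive endoderm markers were also higher, and of oocyte markers lower, in both 20-hour samples than in both 17-hour samples. These sums are of RNAs and do not count cells. At 20 hours 3 of the 6 trophectoderm genes and 5 of the 15 cumulus and granulosa genes had a mean of at least 1 FPKM. The part of these RNAs in the values above was not tested. Cldn6, Cldn7 and Ocln stayed at 0 to 1.02 FPKM in all 6 samples. Of the longer junction list 2 of 23 rose and 9 fell at 17 hours against 14 hours in limma, beside 37.0% of all rows called. Handling and time cannot be told apart for these counts either. At 20 hours against 17 hours 1 rose and 4 fell, beside 19.6% of all rows. There Ctnnb1 (beta-catenin, -0.31, adjusted p = 0.0035) and the cingulin relative Cgnl1 (-0.52, adjusted p = 0.0029) fell.

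In LncR-3363 KD-1cell embryos Cdh1 was higher and Cgn lower than in Ctrl. Cdh1 had 28.4, 30.6, 21.8 and 30.8 FPKM in KD-1cell samples against 10.79, 11.6, 10.4 and 11.9 in Ctrl samples. Every KD-1cell sample was above every Ctrl sample. Cgn had 27.8, 34.5, 33.4 and 30.9 FPKM in KD-1cell samples against 40.5, 37.5, 44.1 and 38.3 in Ctrl samples, with no overlap. Tjp1 had 34.6, 34.7, 33.6 and 34.8 FPKM in KD-1cell samples, all within the Ctrl samples of 33.3, 37.3, 37.0 and 33.4.

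Cdh1 rose by 1.27 (SE 0.11, adjusted p = 2.2e-05) and Cgn fell by 0.34 (SE 0.08, adjusted p = 0.0088) in KD-1cell embryos, 2 of the 4 genes that passed the filter of 1 FPKM in 4 samples, beside 43.7% of all rows. Both calls held in all 14 alternatives run for this comparison. The change of Tjp1 was -0.03 (SE 0.06, adjusted p = 0.69) and that of Dsp -0.16 (SE 0.17, adjusted p = 0.47). The single KD-2cell sample, which has no replicate, had 12.1 FPKM of Cdh1 and 41.8 of Cgn. For both genes this lies nearer to the Ctrl samples than to KD-1cell. Dsp had 1.014, 1.21, 1.12 and 0.706 FPKM in KD-1cell samples against 1.11, 0.921, 1.21 and 1.503 in Ctrl samples. Cldn4, Cldn6, Cldn7, Ocln and F11r were at 0 to 0.625 FPKM in KD-1cell and at 0 to 0.968 in Ctrl samples. Small and ribosomal rows made up 45.1% to 50.0% of FPKM in KD-1cell samples and 51.0% to 56.5% in Ctrl samples, and scaling by the median of ratios moved the median change of all rows by -0.12. After scaling Cdh1 changed by 1.14 and Cgn by -0.47, and 3 of the 4 genes were called, 1 higher and 2 lower. Oocyte markers overlapped between the groups, with sums of 592.4 to 824.8 FPKM in KD-1cell and 622.3 to 704.4 in Ctrl samples, while those of cumulus and granulosa cells were at 3.51 to 4.01 FPKM in KD-1cell and 2.54 to 3.46 in Ctrl samples, and those of primitive endoderm at 7.82 to 9.38 in KD-1cell and 6.96 to 7.67 in Ctrl samples. These sums are of RNAs and do not count cells, and the part of these RNAs was not tested.

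Among other adherens genes, Afdn, the gene of afadin, which joins nectins to actin, fell by 2.099 in KD-1cell embryos (adjusted p = 1.2e-07), at means of 10.2 FPKM against 45.3 in Ctrl. Ctnna1, alpha-catenin, the actin link of the cadherin complex, fell by 1.24 (adjusted p = 4.1e-07), at 16.5 FPKM against 39.8. Cgnl1 rose by 0.62 (adjusted p = 4.7e-05) and Magi1 by 0.28 (adjusted p = 0.0071). Of the 21 tested 8 rose and 4 fell, beside 43.7% of all rows called, and after scaling 5 rose and 6 fell.

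MT2Mm knockout embryos had more Cdh1 than ctrl embryos at both stages. At late 1-cell Cdh1 had 44.6, 44.1 and 44.7 FPKM in KO embryos against 36.1, 33.8 and 34.8 in ctrl embryos. At early 2-cell it had 17.8, 18.1 and 19.9 FPKM in KO embryos against 11.6, 11.6 and 10.96 in ctrl embryos. The groups did not overlap at either stage.

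At late 1-cell Cdh1 rose by 0.35 in KO embryos (SE 0.05, adjusted p = 0.04), 1 of the 5 genes tested, where 0.114% of all rows (15 of 13180) were called, or 0 to 4 rows with a sample left out. This call was lost without any 1 of the 6 samples (adjusted p 0.096 to 0.18) and in 5 other settings, with log2 changes of 0.32 to 0.37 throughout. Tjp1 (0.04), Cgn (0.11), Dsp (0.12) and F11r (-0.14) did not pass, and their samples overlapped. None of 23 other junction genes was called in limma, and none had an unadjusted p under 0.05.

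At early 2-cell Cdh1 rose by 0.68 in KO embryos (SE 0.05, adjusted p = 1.1e-06), and the call held in all 12 alternatives. Cgn had 37.5, 41.1 and 36.3 FPKM in KO embryos against 48.1, 48.2 and 40.8 in ctrl embryos, with the third ctrl sample inside the KO range. It fell by 0.25 (SE 0.08, adjusted p = 0.029), a call lost without ctrl replicate 1 (adjusted p = 0.097), ctrl replicate 2 (0.098), KO replicate 1 (0.08) or KO replicate 3 (0.1), and with no filter (0.083). The 2 of 5 calls compare with 49.0% of all rows. Tjp1 had 27.2, 28.6 and 30.4 FPKM in KO embryos against 30.4, 30.5 and 27.3 in ctrl embryos and did not pass. F11r had 1.08, 1.08 and 1.23 FPKM in KO embryos against 0.906, 1.17 and 1.17 in ctrl embryos and did not pass. Ocln, below the filter, had 0.818, 0.735 and 0.934 FPKM in KO embryos against 0.417, 0.515 and 0.529 in ctrl embryos, without overlap and without a test. Cldn4, Cldn6 and Cldn7 were at or below 0.697 FPKM in all 6 samples. Small and ribosomal rows made up 56.2% to 57.5% of FPKM in KO samples and 61.1% to 63.3% in ctrl samples, and scaling moved the median change of all rows by -0.13, with Cdh1 then at 0.53 and Cgn at -0.40, and 3 of the 5 genes called, 1 higher and 2 lower. Sums of the oocyte (681.9 to 766.4 FPKM in KO against 591.5 to 676.0 in ctrl), trophectoderm (7.42 to 8.26 against 4.44 to 5.43) and cumulus and granulosa markers (3.84 to 4.43 against 3.16 to 3.69) were higher in KO samples. Those of inner cell mass (84.8 to 93.1 FPKM in KO against 97.5 to 109.7 in ctrl) and primitive endoderm markers (6.73 to 7.46 against 8.45 to 8.81) were lower. These sums are of RNAs and do not count cells, and 1 of the 4 primitive endoderm genes had a mean of at least 1 FPKM in each group. The part of these RNAs in the results was not tested.

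Of the 23 other junction genes 11 rose and 5 fell at early 2-cell, beside 49.0% of all rows called, and after scaling 7 rose and 6 fell. Cdh3 rose by 0.56 (adjusted p = 0.00032), and Afdn (-0.34, adjusted p = 0.003) and Pkp4 (-0.27, adjusted p = 0.00033) fell. Afdn had means of 39.9 FPKM in KO embryos and 50.7 in ctrl embryos.

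The control embryos give the course of these genes over the same interval. Between Late1c and Early2c ctrl embryos Cdh1 fell by 1.57 at early 2-cell (SE 0.05, adjusted p = 6.4e-11) and Tjp1 by 0.22 (SE 0.06, adjusted p = 0.0027). Cgn rose by 0.44 (SE 0.08, adjusted p = 0.00047). F11r rose by 1.33 (SE 0.12, adjusted p = 5.6e-07), at means of 1.08 FPKM at early 2-cell and 0.131 at late 1-cell, but it passed the filter through the early 2-cell samples alone and is not counted. The other 3 calls stand beside 79.2% of all rows, and scaling moved the median of all rows by 0.18. After it Tjp1 changed by -0.03 (adjusted p = 0.67), while Cdh1 (-1.38), F11r (1.42) and Cgn (0.64) were still called. Of the other junction genes 5 rose and 15 fell (5 and 10 after scaling), with Ctnnb1 down by 1.48 (adjusted p = 3e-09) and Cgnl1 by 1.58 (adjusted p = 1.1e-09).

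The knockout effect itself was compared between the stages as an interaction. For Cdh1 the effect was larger at early 2-cell than at late 1-cell by 0.33 (SE 0.07, adjusted p = 0.0036), and for Cgn lower by 0.36 (log2 difference -0.36, SE 0.12, adjusted p = 0.033). Tjp1, F11r and Dsp did not pass, so 2 of 5 were called beside 37.3% of all rows. After scaling the difference for Cdh1 was 0.16 and no longer called (adjusted p = 0.081), while that of Cgn was -0.53 (adjusted p = 0.01); the median of all rows moved by -0.15. The call of Cgn was lost without 7 of the 12 samples in turn (adjusted p 0.056 to 0.081) and with no filter (0.11). Of the other junction genes 8 were called upward and 4 downward, and after scaling 4 and 6.

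**Figure D5:**
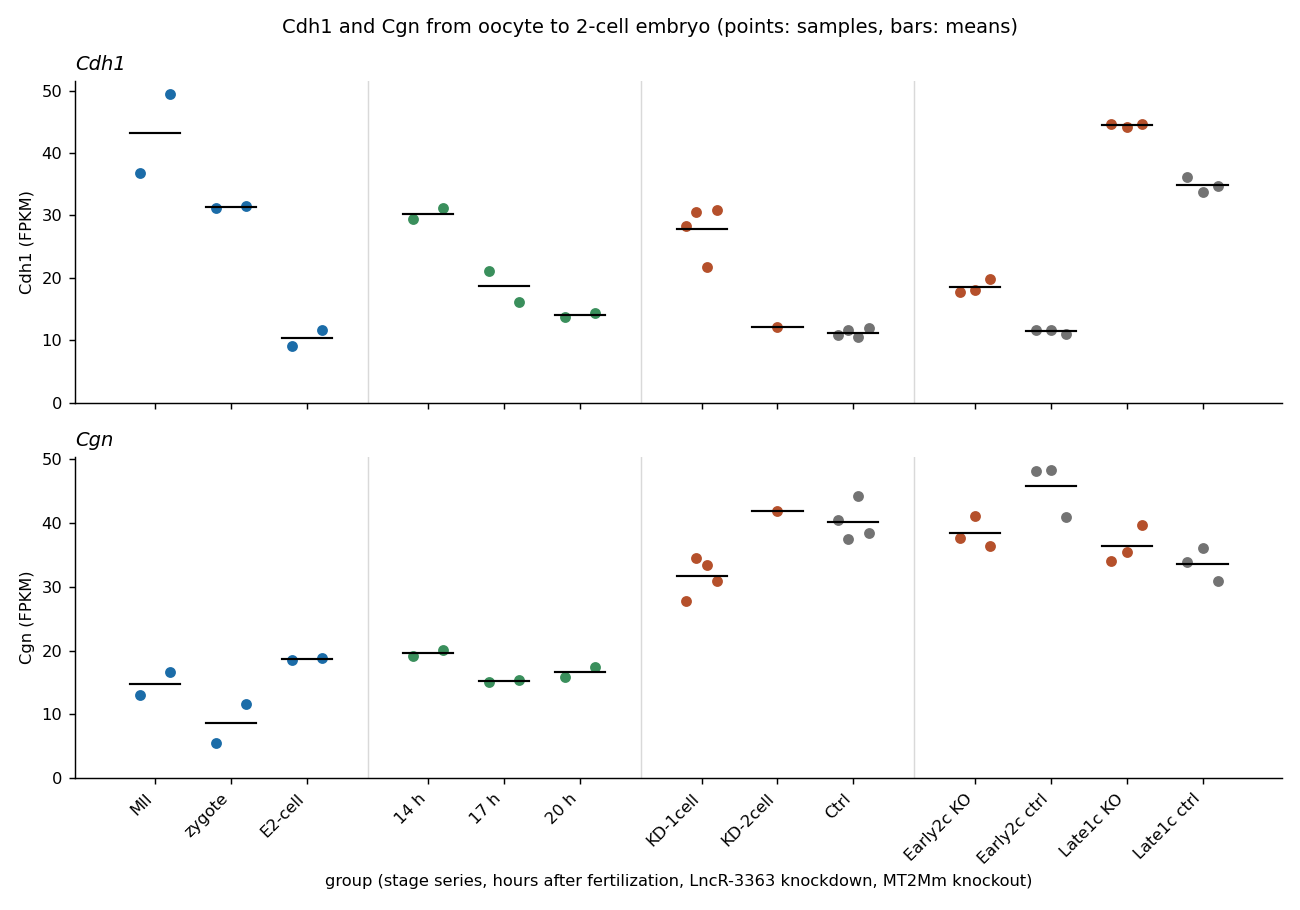
FPKM of Cdh1 (top) and Cgn (bottom) in each sample (points) of the MII, zygote and E2-cell stages, the 3 times, the LncR-3363 groups and the MT2Mm groups; bars are group means, and vertical lines part the experiments. Cdh1 is at 21.8 to 30.8 FPKM in KD-1cell against 10.4 to 11.9 in Ctrl, and at 17.8 to 19.9 in Early2c KO against 10.96 to 11.6 in Early2c ctrl.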

How the data were processed

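Total RNA from mouse oocytes and embryos was sequenced in paired ends of 150 bases, per the labels' protocols. Per the submitters' processing notes, cutadapt 1.18, HISAT2 2.1.0, StringTie 1.3.4d, Cufflinks and Cuffdiff 2.2.1 were used with GRCm38, without roles being stated. The authors deposited a single table of FPKM values, with 43 columns for 57 labelled samples: groups with 4 labelled samples outside the knockdown have 2 columns, named merge or cat. Identifiers were matched to GENCODE M21, which held 54409 of the 54446.

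For each of 4 experiments, a row entered the fit if the number of samples at 1 FPKM or more was no smaller than the smallest replicated group, and values were fitted on log2(FPKM + 0.5) with limma 3.58.1 (trended empirical Bayes, R 4.3.3), and p-values were Benjamini-Hochberg adjusted over all rows fitted, for 15 comparisons. The single KD-2cell column stayed out of the fit and entered as an added group in an alternative. Alternatives were pseudocounts of 0.1 and 1, no filter, scaling by the median of ratios, a replicate block, fits of 2 groups alone, samples of a shared tag, and leaving out each sample. The 9 genes, the lists and the tests were chosen with earlier results of these data known. Other junction genes named were drawn from the 2 called genes per class with the largest change whose higher group mean reached 5 FPKM, and similar genes by Pearson's r over 8 stage means. Same-numbered samples did not deviate together (r of deviations -0.0889 to 0.093). The code was tested on simulated data. Promoters came from RefSeq (GRCm38.p6). Figures were drawn with Matplotlib 3.10.9, and tables made with pandas 2.3.3 and NumPy 2.4.6 in Python 3.11.15. 1 gene of the longer junction list is counted but not reported here by name.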

Additional observations from a re-analysis of the deposited data

Results flagged for a closer look

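Cldn7 in KD-1cell embryos was picked out because 1 of the 4 samples stood apart from the rest, at 0.0666 FPKM with the other 3 listed at 0. All 4 values are far below 1 FPKM and were not tested. Of 18 groups of 4 samples examined, about 1 in 20 is picked out by chance.

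The effect of the MT2Mm knockout differed between the stages for Cdh1, by 0.33 on the log2 scale (early 2-cell minus late 1-cell, limma, adjusted p = 0.0036), and for Cgn, by -0.36 (adjusted p = 0.033). The first was no longer called after scaling by the median of ratios, at 0.16 (adjusted p = 0.081), and over the 17 alternatives its adjusted p ran between 0.0032 and 0.081. That of Cgn ran between 0.01 and 0.11.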

How the results depend on the processing

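Of 61 called results of the 9 genes, 40 were called in every alternative in which the gene passed the filter. The call was lost in at least 1 alternative for 21, and none of the 61 changed direction. Alternatives in which a gene did not pass the filter were left out of this count. Between zygote and MII 1 of the 9 genes was called, against 2 with a pseudocount of 1, 0 with the stages fitted alone and 0 to 4 with a sample left out. Between E2-cell and zygote 2 were called with the stages fitted alone, in place of 7, beside 29.0% of all rows in place of 44.1%. F11r, Dsp and Cldn6 did not pass the filter of that fit. Between morula and 8-cell 5 were called with the stages alone, in place of 3, beside 43.9% of all rows in place of 20.9%. With a sample left out, 5 to 8 were called at L2-cell, 3 to 4 at 8-cell, 1 to 2 for Early2c KO, 1 to 2 for the interaction and 0 to 1 at 20 hours. At 20 hours 1 was called with no filter, and 3 other junction genes in place of 5 after scaling. For Late1c KO 0 were called with a pseudocount of 1, with no filter, after scaling, with a replicate block, with the groups alone and (0 to 0) with any sample left out. For the interaction 1 was called with no filter. Apart from Cdh1 in Late1c KO (adjusted p = 0.099), in morulae (0.072) and Cldn4 in blastocysts (0.059), the replicate block changed no call of the 9 genes, and the 4-cell columns, numbered 3 and 4, allowed no blocked fit. Same-numbered samples share only a number. No fit within a tag was possible for L2-cell against E2-cell, 4-cell against L2-cell or blastocyst against MII.

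Over all rows, 740 were called between zygote and MII, against 449 with a pseudocount of 0.1, 276 with the replicate block, 1 with the stages alone, 371 without MII replicate 1 and 5008 without zygote replicate 2. Between E2-cell and zygote 8685 were called, against 4030 with the stages alone, and at 17 hours 4752, against 2898 with no filter, 2579 without 14-hour replicate 2 and 2828 without 17-hour replicate 2. At 20 hours 2521 were called, against 905 to 1188 with a sample left out. For Late1c KO 15 rows were called, against 44 (pseudocount 0.1), 0 (pseudocount 1), 2 (no filter), 0 (scaled), 0 (replicate block), 3 (groups alone) and 0 to 4 (a sample left out). Scaling moved the share of higher rows among all calls to 40.9% at 17 hours (55.3% unscaled), 37.5% at 20 hours (26.1%), 50.3% for KD-1cell (68.2%), 47.8% for Early2c KO (68.2%) and 47.1% for the interaction (68.8%). The cause was not tested. Read depth is unknown, so counting error is not known for values under 1 FPKM.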
